A study of Mus musculus with 6 samples.

Results

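The peptide transporter gene Tap1 and the genes that act with it in MHC class I antigen presentation were followed in the prostates of irradiated mice that carried 0, 1 or 2 copies of the Trp53 R270H allele. The 10 genes were taken by symbol, from a list drawn up with earlier results of these data known: Tap1, Tap2, Tapbp, Psmb8, Psmb9, Psmb10, H2-K1, H2-D1, B2m and Nlrc5. Each matched 1 of the 47719 gene identifiers in the deposited tables, and all 10 were among the 13818 genes with a mean of at least 1 FPKM (fragment counts scaled to transcript length and to the number of mapped fragments) that entered the tests. Tap1 is discussed in the study because it was lower in these same mutant mice, so its difference is a starting point here. The question asked of the other 9 genes was whether they shared it.

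Polyadenylated RNA was sequenced from the prostates of 6 B6.129S4-Trp53tm3.1Tyj/J mice of about 3 months of age, 2 of each genotype. Wildtype mice (Trp53+/+) were numbers 39 and 41, heterozygous mice (Trp53R270H/+) were 37 and 40, and homozygous mice (Trp53R270H/R270H) were 47 and 49. All of them had received 5 Gy of whole body irradiation 6 h before the prostate was taken, and no unirradiated mouse was analysed here, so every difference below is one between genotypes after irradiation. The RNA came from whole tissue and not from sorted cells. In such bulk RNA, fewer cells of a type and less RNA per cell cannot be told apart.

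MHC class I molecules show the cell's own peptides to CD8 T cells. Proteins are cut by the proteasome, in which the interferon-inducible subunits Psmb8, Psmb9 and Psmb10 can replace the constitutive ones. The peptides are pumped into the endoplasmic reticulum by the Tap1-Tap2 transporter and loaded, with the help of tapasin (Tapbp), calreticulin and Erp57, onto a heavy chain such as H2-K or H2-D that is paired with beta-2 microglobulin (B2m). Nlrc5 is the transactivator that acts with factors bound to the SXY elements of class I promoters, and TAP1 has been described as a target of wildtype p53.

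Tap1 and Psmb9 lie head to head and share a promoter. In the RefSeq promoter table for GRCm38.p6, which held windows for 8 of the 10 genes (not Tap2 or Nlrc5), the window of each gene runs from 250 bases before to 50 bases after its start. For H2-K1, which had 2 windows, the one farther upstream was taken. The Tap1 window (chr17:34187306-34187605, plus strand) and the Psmb9 window (minus strand) had 275 bases in common, and the annotated starts were 226 bases apart. The Tap1 window is shown because the genes on its 2 sides differed in how their levels went with genotype. Capitals mark TGACG, the letters at the core of an X2 element, and CCAAT on either strand. Tap1 starts at base 251 of the sequence and runs to the right, and Psmb9 starts at base 25 and runs to the left.
Tap1 and Psmb9: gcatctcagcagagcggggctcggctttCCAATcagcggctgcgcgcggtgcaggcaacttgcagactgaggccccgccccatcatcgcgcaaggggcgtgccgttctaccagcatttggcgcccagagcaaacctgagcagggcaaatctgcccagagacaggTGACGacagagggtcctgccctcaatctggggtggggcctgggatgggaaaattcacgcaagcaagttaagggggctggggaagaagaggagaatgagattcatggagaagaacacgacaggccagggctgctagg

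The same letters are shown in the windows of H2-K1 (chr17:34000324-34000398, minus strand), H2-D1 (chr17:35262983-35263057, plus strand) and B2m (chr2:122147599-122147673, plus strand), since these are the classical Nlrc5-responsive genes whose levels are set beside Nlrc5 below. TGACG was followed within the stretch by ATTGG, the reverse complement of CCAAT, in all 3.
H2-K1: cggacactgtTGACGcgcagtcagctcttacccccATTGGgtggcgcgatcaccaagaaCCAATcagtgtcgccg
H2-D1: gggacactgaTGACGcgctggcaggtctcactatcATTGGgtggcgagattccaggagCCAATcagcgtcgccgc
B2m: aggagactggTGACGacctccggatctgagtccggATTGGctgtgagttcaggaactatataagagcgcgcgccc

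These matches are descriptions of letters and not of bound sites. Over both strands, TGACG occurred in 20.8% and CCAAT in 37.4% of all 32851 promoter windows in the table. GGGATTCCC, a kappa B sequence, occurred in 0.353% of them, among these the H2-K1 and H2-D1 windows. The gamma-interferon-type letters TTCNNNGAA (8.3% of windows) were found in Psmb8, and the interferon regulatory factor letters GAAANNGAA (8.56%) in B2m. GGGCGG, a GC box (35.7%), was present in the Tap1, Psmb9 and Tapbp windows. The p53 half-site was matched in 8.36% of all windows and in 0 of these 8, which says only that its letters are not in these 300 bases.

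Before the values of the 10 genes, the libraries were compared with each other. The FPKM of a mouse summed to between 518671 and 636407, and between 13452 and 13827 genes reached 1 FPKM. The number of fragments relative to wildtype mouse 39, read from the smallest values, lay between 0.790 and 1.07. Fragment counts are not part of the tables, so the counting error of a single value is unknown. Trp53 itself was at 17.3 and 21.4 FPKM in wildtype, 20.9 and 19.6 in heterozygotes and 20.8 and 18.3 in homozygotes. The allele is a knock-in point mutation, so this level does not check the genotype. For scale, 13 of the 14 tested genes of the p53 target list fell in homozygous mice (limma, adjusted p-value under 0.05), with a median log2 change of -2.03. Cdkn1a, the p21 cell cycle inhibitor, fell by 4.01 on the log2 scale (adjusted p = 0.00075). The list was compiled with these results known, so its count is no check of the genotype either.

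Homozygous mouse 47 stood apart in its secretory genes. Pbsn, the probasin gene of the prostate epithelium, was at 257 FPKM in this mouse and between 7329 and 11512 in the other 5. The seminal vesicle secretion gene Svs6 was at 26147 FPKM in mouse 47 and at most 1021 in the others, while Svs2, Svs4 and Svs5 were listed at 0 in it, Svs2 in mouse 49 as well. In mouse 47, 0.854% of the tested genes were at least 2-fold above every other mouse, against 0.109% to 0.398% in each other mouse. The summed seminal vesicle markers were not low in mouse 47 (47746 FPKM). They were low in wildtype mouse 39, at 3369 FPKM against 30314 or more elsewhere. Values without mouse 47 are given beside the results that it moved. They come from a fit in which homozygous mice are represented by mouse 49 alone, assumed to vary like the other genotypes, and in which 4.81% of all tested genes were lower and 6.88% higher at an unadjusted p under 0.05.

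**Figure D1:**
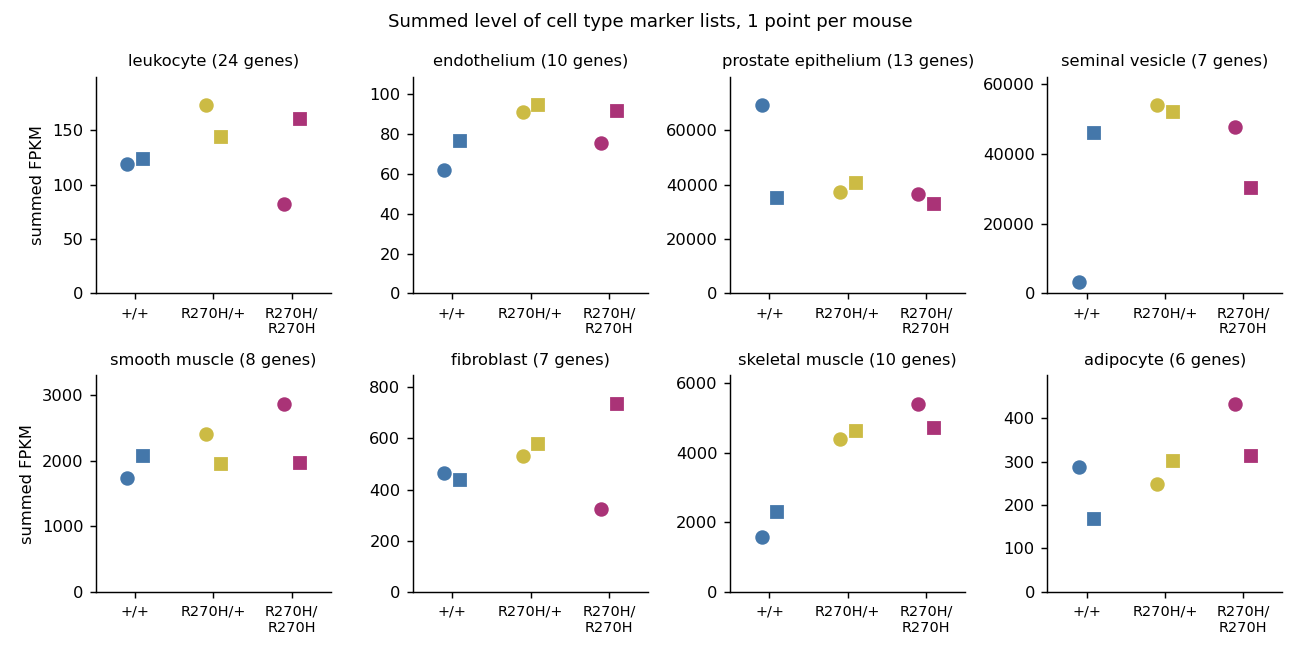
Summed FPKM of 8 lists of cell type marker genes (y axes, linear) in each of the 6 mice by genotype (x axes), with the lower animal number of a genotype as a circle and the higher as a square. The 4 mutant mice lie above both wildtype mice for skeletal muscle, homozygous mouse 47 is lowest for leukocyte and fibroblast markers, and wildtype mouse 39 is lowest for seminal vesicle.

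Tap1, a subunit of the peptide transporter at chr17:34187553-34197225 (ENSMUSG00000037321, plus strand), was at 22.9 and 17.6 FPKM in wildtype mice, 14.6 and 12.1 in heterozygotes and 11.3 and 11.0 in homozygotes. The values were ordered by the number of mutant alleles with no overlap between the genotypes, and the 2 homozygous mice were close to each other. Against wildtype, Tap1 was 1.80-fold lower in homozygous mice (log2 difference -0.84 ± 0.17, SE, 95% interval -1.27 to -0.42, limma, unadjusted p = 0.00303, adjusted p = 0.133). In heterozygous mice it was 1.51-fold lower (log2 difference -0.59, 95% interval -1.02 to -0.17, limma, unadjusted p = 0.0146, adjusted p = 0.514). Neither difference passed the threshold once adjusted over all genes. The 2 comparisons share the wildtype mice.

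The slope of the log2 level of Tap1 per mutant allele was -0.42 (95% interval -0.63 to -0.21, limma, unadjusted p = 0.00205, adjusted p = 0.116). Between homozygous and heterozygous mice the difference was -0.25 (95% interval -0.68 to 0.18, adjusted p = 0.711), so the step between these 2 genotypes was not resolved by the test. Without mouse 47 the homozygous difference was -0.87, and without wildtype mouse 39, the highest, it was -0.65. Both had an unadjusted p of 0.0165. The heterozygous difference was -0.40 without mouse 39 (limma, unadjusted p = 0.0777) and -0.46 without heterozygous mouse 40 (unadjusted p = 0.0909), so its unadjusted call rested on these 2 mice. Skeletal muscle markers moved with the same grouping: 9 of 10 were higher in homozygous mice at an unadjusted p under 0.05 (limma, 8.65% of all tested genes). Their summed level was 1566 to 2300 FPKM in wildtype, 4403 to 4637 in heterozygotes and 4712 to 5418 in homozygotes. Of the endothelial markers 4 of 10 were higher at the same threshold. Of 13 prostate epithelial markers 2 were lower (9.32% of all tested genes), among them Epcam, and 1 was higher (8.65%), the basal cell marker Trp63. Without mouse 47 the difference of Epcam was -0.40 in place of -0.47. The median differences were then 1.33 in place of 1.40 for muscle markers and 0.56 in place of 0.36 for endothelial markers. The part of these cell types in the Tap1 difference was not tested.

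Tap2, the partner subunit, lies downstream of Tap1 on the same strand, with Psmb8 between them. It was at 18.1 and 16.7 FPKM in wildtype, 15.6 and 15.7 in heterozygotes and 17.0 and 16.2 in homozygotes. The homozygous values overlapped the wildtype range, and the whole spread over the 6 mice was small. The homozygous difference was -0.07 on the log2 scale (95% interval -0.34 to 0.21, adjusted p = 0.775). A difference of the size seen for Tap1 lies outside this interval.

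Tapbp encodes tapasin, which bridges the transporter to empty class I molecules. It was at 85.9 and 81.8 FPKM in wildtype, 83.5 and 72.4 in heterozygotes and 66.1 and 80.3 in homozygotes. Both homozygous values were below both wildtype values, and the lower of them was that of mouse 47. The homozygous difference was -0.20 (95% interval -0.57 to 0.17, adjusted p = 0.514) and -0.06 without mouse 47.

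None of the 3 immunoproteasome subunits was below wildtype without overlap in either mutant genotype. Psmb9, on the other side of the shared promoter, was at 8.60 and 8.90 FPKM in wildtype, 8.72 and 8.11 in heterozygotes and 9.53 and 10.1 in homozygotes. Both homozygous mice were above all other mice, by a small amount. The homozygous difference was 0.16 (95% interval -0.13 to 0.45, adjusted p = 0.500), in the direction opposite to that of Tap1. The annotated bodies of Tap1 and Psmb9 overlap by 212 bases on opposite strands (chr17:34187553-34187764). The libraries kept strand, but whether the quantification used it is not given in the sources used here, so the split of reads over that stretch is uncertain.

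Psmb8, which lies between Tap1 and Tap2, was at 19.0 and 15.3 FPKM in wildtype, 17.2 and 17.4 in heterozygotes and 19.1 and 20.3 in homozygotes. The homozygous values were above the wildtype values, although mouse 47 exceeded wildtype mouse 39 only barely. The homozygous difference was 0.20 (95% interval -0.14 to 0.55, adjusted p = 0.484). Psmb10, the third inducible subunit, encoded on chromosome 8, was at 16.9 and 13.6 FPKM in wildtype, 16.1 and 15.7 in heterozygotes and 15.5 and 14.3 in homozygotes. All 4 mutant values were inside the wildtype range, with a homozygous difference of -0.02 (95% interval -0.38 to 0.33, adjusted p = 0.949).

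Set beside the constitutive subunits that they replace, the inducible subunits were the minor form in every mouse. Psmb8 was at 12.6% to 22.9% of the FPKM of Psmb5, Psmb9 at 5.24% to 8.22% of Psmb6 and Psmb10 at 16.7% to 23.6% of Psmb7. Of the 3 ratios, that of Psmb9 to Psmb6 was higher in both homozygous mice (6.56% and 8.22%) than in both wildtype mice (6.34% and 5.56%), and the other 2 overlapped.

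The classical heavy chains were abundant and similar between genotypes. H2-K1 was at 392 and 357 FPKM in wildtype, 472 and 415 in heterozygotes and 379 and 407 in homozygotes. Both heterozygous mice were the highest, and the homozygous values overlapped those of wildtype (homozygous difference 0.07, 95% interval -0.35 to 0.49, adjusted p = 0.849). H2-D1 was at 249 and 248 FPKM in wildtype, 287 and 255 in heterozygotes and 262 and 265 in homozygotes. All 4 mutant values were above the wildtype values, with a homozygous difference of 0.09 (95% interval -0.28 to 0.45, adjusted p = 0.780). Class I genes are a family of close copies, so reads may be split between them and each level is uncertain to that extent.

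B2m, the light chain common to all class I molecules, was the most abundant of the 10 genes, at 2551 and 3031 FPKM in wildtype, 3279 and 3338 in heterozygotes and 8211 and 3302 in homozygotes. The value of mouse 47 was 2.46-fold that of the next highest mouse, and the other 3 mutant mice lay close together above wildtype. The homozygous difference was 0.91 (95% interval -0.39 to 2.20, adjusted p = 0.411). It was 0.25 without mouse 47 and 1.56 without mouse 49 (limma, unadjusted p = 0.03, adjusted p = 0.200), so its size rested on mouse 47.

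Nlrc5, the class I transactivator, was the least abundant gene and the only one that was ordered in the upward direction. It was at 2.89 and 2.09 FPKM in wildtype, 3.56 and 3.39 in heterozygotes and 5.72 and 4.40 in homozygotes. No 2 genotypes overlapped. Nlrc5 was higher in homozygous than in wildtype mice (log2 difference 1.00 ± 0.23, SE, 95% interval 0.44 to 1.57, limma, unadjusted p = 0.00514, adjusted p = 0.151) and its slope per mutant allele was 0.50 (limma, unadjusted p = 0.0022, adjusted p = 0.118). The homozygous difference was 0.82 without mouse 47 (unadjusted p = 0.0334, adjusted p = 0.397). So neither Tap1 nor Nlrc5 passed the adjusted threshold, and the class I genes H2-K1, H2-D1 and B2m had no difference that passed it either.

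**Figure D2:**
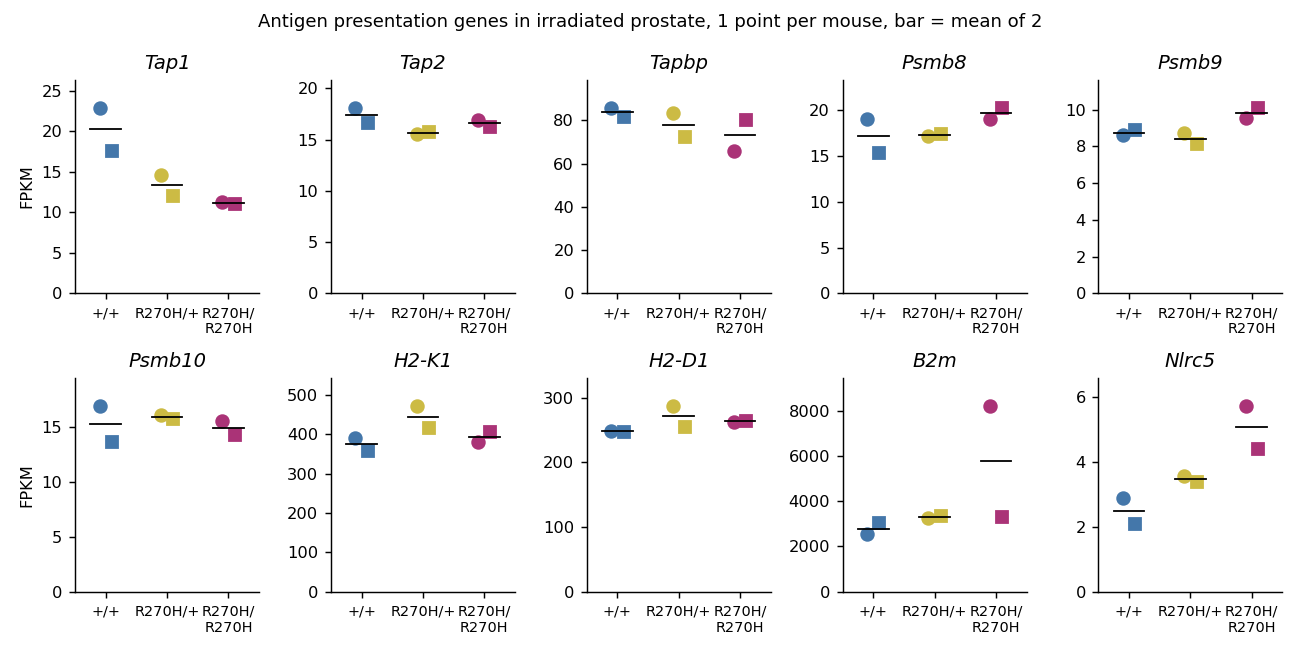
FPKM (y axes, linear and starting at 0) of the 10 genes in each of the 6 mice by genotype (x axes), with the lower animal number of a genotype as a circle, the higher as a square and a black bar at the mean of the 2 mice. Tap1 steps down and Nlrc5 steps up with no overlap, and the high B2m mean of homozygous mice rests on 1 mouse at 8211 FPKM.

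In order of mean level over the 6 mice, and per kilobase, B2m (3952 FPKM) was followed by H2-K1 (404), H2-D1 (261), Tapbp (78.3), Psmb8 (18.1), Tap2 (16.5), Psmb10 (15.3), Tap1 (14.9), Psmb9 (9.0) and Nlrc5 (3.68). The ranges of Psmb8, Tap2, Psmb10 and Tap1 overlapped, so these 4 neighbours are not separated. The ranges of all other neighbours in this order did not overlap. In wildtype mice the 2 subunits of the transporter were near each other (Tap1 20.3 ± 3.77 and Tap2 17.4 ± 1.04 FPKM, SD, n = 2), whereas in both homozygous mice Tap1 was below Tap2 (11.1 ± 0.239 and 16.6 ± 0.502 FPKM, SD, n = 2).

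Counted over the 10 genes, 0 had an adjusted p under 0.05 in homozygous against wildtype mice (limma), where 0.384% of all tested genes did. At an unadjusted p under 0.05, 1 was lower (Tap1, against 9.32% of all tested genes) and 1 was higher (Nlrc5, against 8.65%). In heterozygous mice 0 passed adjustment, as did 0% of all genes, and Tap1 was the 1 gene lower at the unadjusted threshold (2.21% of all genes), with 0 higher (4.66%). For the slope per allele 0 passed adjustment (0.355% of all genes), with Tap1 lower (10.5%) and Nlrc5 higher (9.15%) at the unadjusted threshold. A share of 1 in 10 is near these backgrounds, so the counts themselves are no result about the pathway.

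Without a model, both homozygous values were below both wildtype values for 2 genes, Tap1 and Tapbp (28.7% of all tested genes), and above them for 5, B2m, Psmb8, Psmb9, H2-D1 and Nlrc5 (21.3%). Without mouse 47, where a single homozygous value is held against 2 and no overlap is easier to reach, these counts were 3 (41.2% of all tested genes) and 6 (33.5%). Both heterozygous values were below wildtype for 2, Tap1 and Tap2 (19.9%), and above for 4, B2m, H2-K1, H2-D1 and Nlrc5 (19.2%). An order by allele number without overlap was seen for Tap1 downward (4.98% of all genes) and for Nlrc5 upward (3.85%).

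**Figure D3:**
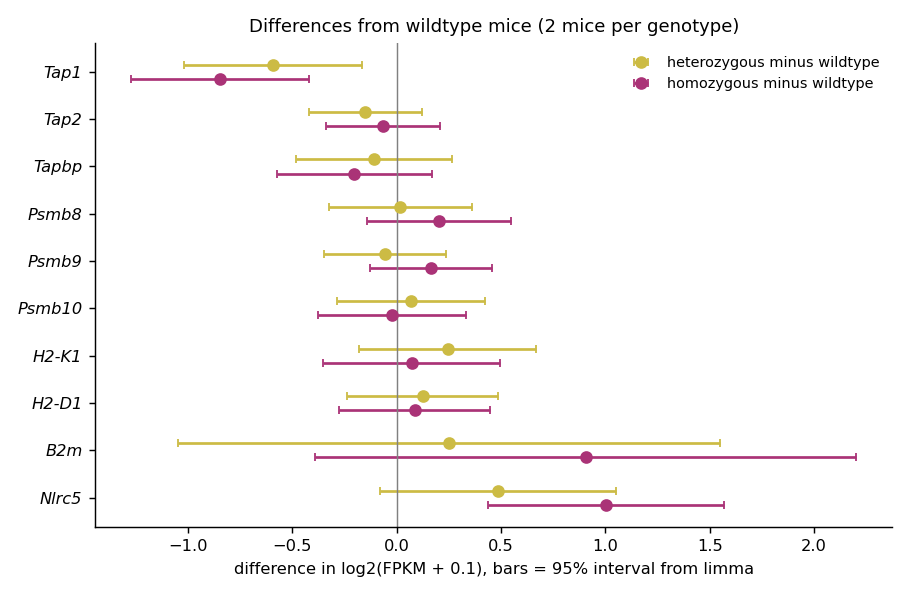
Difference from wildtype mice in log2(FPKM + 0.1) (x axis) for the 10 genes (y axis), in heterozygous and homozygous mice, with points at the limma estimate and bars at the 95% interval. For Tap1 both intervals lie below 0, for Nlrc5 the homozygous one lies above 0, and all others include 0.

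Whether the other genes differed from Tap1 was tested on the ratio of Tap1 to each of them within a mouse, which, but for the added 0.1 FPKM, does not depend on the scaling of a library. The log2 ratio of Tap1 to Tap2 was 0.34 and 0.08 in wildtype, -0.09 and -0.38 in heterozygotes and -0.58 and -0.56 in homozygotes. It was ordered by allele number without overlap, with a difference of -0.78 between the homozygous and wildtype means. The log2 ratio of Tap1 to Psmb9 was 1.40 and 0.98 in wildtype, 0.74 and 0.57 in heterozygotes and 0.24 and 0.12 in homozygotes. It too was ordered, with a homozygous difference of -1.01.

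All 9 ratios were lower in both homozygous mice than in both wildtype mice, and 7 were fully ordered, the exceptions being those to Tapbp and H2-K1. For these 7 the slope per allele had p = 0.0222 in an exact two-sided permutation test over the 90 arrangements of the 6 mice, the smallest p that the design can give (0.0286 adjusted over the 9 ratios). In the same exact permutation test the ratios to Tapbp and H2-K1 had p = 0.0444 (adjusted 0.0444). The 9 ratios all contain Tap1, which was known to be low in these mice, so they are 1 observation on Tap1 seen against 9 partners and not 9 independent ones. In these 6 mice no partner fell as far as Tap1 in the homozygotes, which does not show that the partners did not differ. Because the fall of Tap1 was known beforehand, the p-values cannot decide how much of it the partners share.

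**Figure D4:**
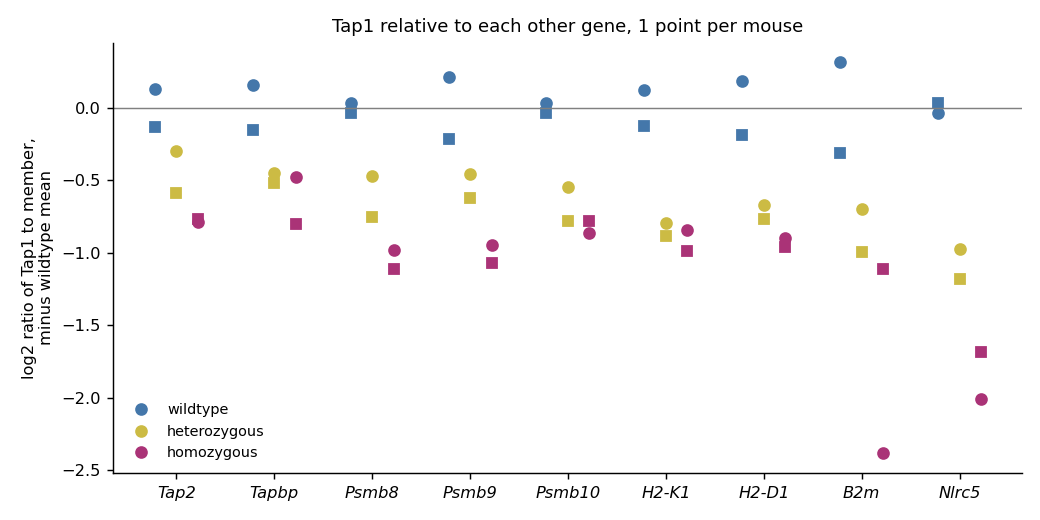
Log2 ratio of Tap1 to each of the other 9 genes in each mouse, after subtraction of the wildtype mean (y axis), by partner gene (x axis) and genotype (colours), with the lower animal number as a circle and the higher as a square. Every homozygous point lies below every wildtype point, and the ratios to B2m and Nlrc5 reach lowest.

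The genes around Tap1 were then taken by position. Of the genes within 100 kb of it, 8 were tested, with log2 differences between homozygous and wildtype mice of -0.28 to 0.25. The lowest, that of the chromatin reader Brd2, had an unadjusted p of 0.0472 (limma, adjusted p = 0.273). All 8 lay nearer to 0 than the -0.84 of Tap1. Psmb9, Psmb8 and Tap2 are among them, as are the class II genes H2-Aa, H2-Ab1, H2-DMa and H2-DMb1. Most of the 8 are therefore not separate from genes described elsewhere here.

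The 5 tested genes whose profile over the 6 mice was closest to that of Tap1, by the root mean square difference of centred log2 values, were Btg1 (0.0764), Nubp1 (0.0896), Dgka (0.101), Naa40 (0.102) and Prss16 (0.118). Btg1, an antiproliferative gene, was at 99.6 and 79.3 FPKM in wildtype, 57.2 and 52.7 in heterozygotes and 47.9 and 51.0 in homozygotes. None of the 5 is among the 10 genes. Of 13817 genes ranked by this measure, Tapbp was at rank 1919, Tap2 at 3416 and Psmb10 at 4660, while H2-D1, H2-K1, Psmb9 and Psmb8 were at 6847 to 7827, and Nlrc5 and B2m at 12548 and 12781. The measure is a description and carries no test.

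The rest of the pathway was described from gene lists compiled with the results known, by counts at an unadjusted p under 0.05 in homozygous against wildtype mice (9.32% of all tested genes lower, 8.65% higher, median of all genes -0.04). Apart from the p53 targets, the list with the most genes lower was that of peptide loading and trimming, with 6 of 12 tested lower, 0 higher and a median of -0.39. Calr (calreticulin) was at 743 and 808 FPKM in wildtype, 677 and 663 in heterozygotes and 359 and 475 in homozygotes, a log2 difference of -0.91 (limma, adjusted p = 0.154). Pdia3, which encodes Erp57, had -0.84 and Canx (calnexin) -0.46. Hspa5, the general chaperone BiP of the endoplasmic reticulum, had the lowest value of the list, -1.18 (adjusted p = 0.111).

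None of these 6 passed the adjusted threshold. In heterozygous mice the log2 differences of Calr, Pdia3 and Hspa5 from wildtype were -0.21, -0.27 and -0.08, nearer to 0 than in homozygous mice. In both homozygous mice these 3 genes were below all other mice, and mouse 47 was the lower. Without mouse 47, 4 of the list were still lower at the unadjusted threshold, and Calr, Pdia3 and Hspa5 had differences of -0.71, -0.64 and -1.05. Canx was no longer among them (-0.33, limma, unadjusted p = 0.102). These are general folding genes of secretory cells as well as class I loading genes.

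Class I genes other than the classical 2 went in both directions, with 2 of 15 tested lower and 3 higher. The higher ones were H2-Q7, H2-Q6 and H2-Q4. The level of H2-Q7 was 11.1 and 13.5 FPKM in wildtype, 30.4 and 27.6 in heterozygotes and 26.7 and 30.0 in homozygotes. H2-Q7 was higher in both mutant genotypes by a similar amount (homozygous log2 difference 1.20, limma, adjusted p = 0.0514, heterozygous 1.24) and H2-Q6 by 1.11 and 0.92. H2-Q6 and H2-Q7 are near-identical copies, so how the reads were split between them is uncertain. H2-M3, which presents formylated peptides, was lower (-0.53), but not at the unadjusted threshold without mouse 47 (-0.36, unadjusted p = 0.154). Without that mouse the list had 0 lower and 4 higher.

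The proteasome genes outside the inducible subunits showed no called difference, with 0 of 9 lower and 0 higher (limma, also 0 after adjustment) and a median of -0.19. Of the transcription factors of class I genes, 1 of 15 was lower, Nfyb, a CCAAT-binding subunit (14.2 and 14.0 FPKM in wildtype, 10.6 and 9.99 in heterozygotes, 9.90 and 10.2 in homozygotes, log2 difference -0.49, limma, adjusted p = 0.149), and 0 were higher.

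The interferon lists held genes called in both directions (9.32% of all tested genes were lower and 8.65% higher). Of 9 receptors and kinases, Ifngr2 (-0.83) and Tyk2 (-0.41) were lower and Jak1 (0.44) and Jak2 (0.58) were higher. Of 27 tested interferon-stimulated genes, Mx1 was lower (-0.52), Usp18 (1.06), Gbp4 (0.82) and Xaf1 (0.59) were higher, and the median was 0.28. With 1 lower and 3 higher, the counts of stimulated genes are near the shares of all genes and are no result about the pathway. In heterozygous mice the median of this list was -0.19. Usp18 was at 7.30 FPKM in mouse 47 and at most 3.70 elsewhere. Without mouse 47 the differences were 0.44 for Jak1, -0.40 for Mx1, 0.58 for Usp18, 0.83 for Gbp4 and 0.73 for Xaf1. Bst2, a stimulated gene not called with all mice (-0.30), then had -0.49. These values rest on a single homozygous mouse and are sizes only. They do not show that a call made with all mice holds without mouse 47.

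MHC class II genes, carried mainly by professional antigen-presenting cells, had 0 of 6 tested lower and 0 higher with all mice (limma) and 5 of 6 higher without mouse 47 (6.88% of all tested genes in that fit), so the count depends on whether that mouse is included. H2-Aa was at 72.1 and 73.5 FPKM in wildtype, 104.9 and 93.5 in heterozygotes and 63.7 and 116.5 in homozygotes. The summed leukocyte markers behaved alike, at 119 and 123 FPKM in wildtype, 173 and 144 in heterozygotes and 82.0 and 160.2 in homozygotes. Mouse 47 was the lowest and mouse 49 above wildtype in both sets of values. Of 24 leukocyte markers 12 were tested, with 0 lower and 0 higher (limma, unadjusted p under 0.05, 4 higher without mouse 47). The T cell markers of the list were low throughout, the highest value being 2.35 FPKM for Cd3g in mouse 47. The part of leukocyte content in the differences between genotypes was not tested.

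**Figure D5:**
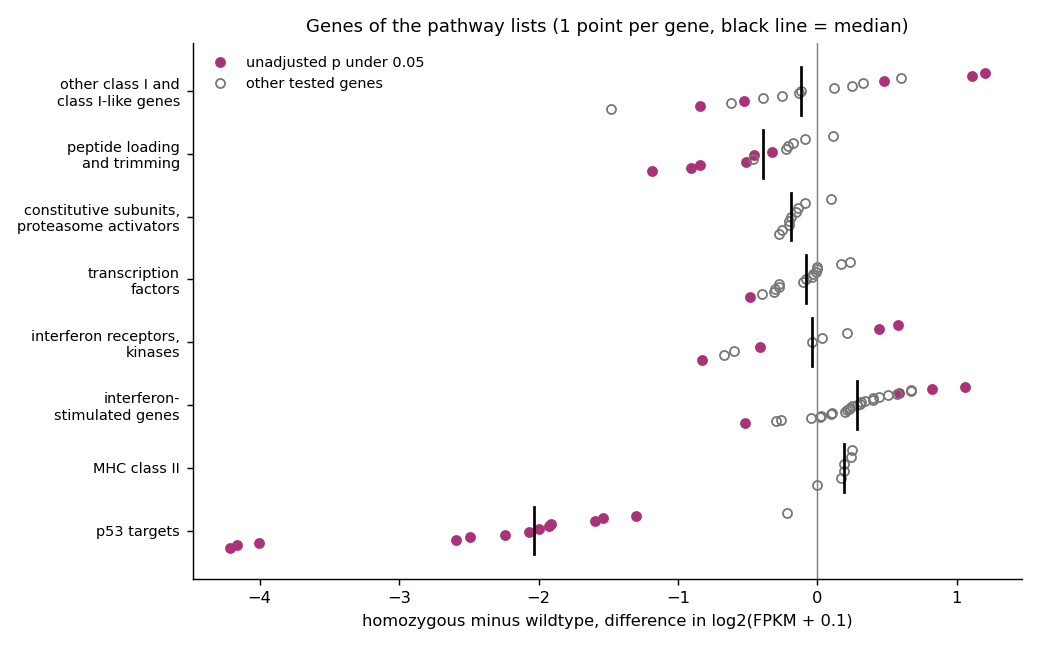
Difference between homozygous and wildtype mice in log2(FPKM + 0.1) (x axis) for the tested genes of 8 lists (y axis), 1 point per gene, filled where the unadjusted p was under 0.05, with a black line at each median. The p53 targets lie farthest to the left (median -2.03), followed by the peptide loading list (median -0.39), and the interferon-stimulated list has its median at 0.28.

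Set against the p53 target list, which was compiled with the results known, the difference of Tap1 was small. The 13 targets that fell in homozygous mice ranged from -4.21 (Eda2r) to -1.30 (Mdm2), and Tap1, at -0.84, lay nearer to 0 than all of them. The remaining tested target, the death receptor gene Fas, had -0.22 (limma, adjusted p = 0.524). Other p53 targets that the paper reports as changed, among them Hsp90ab1, Ptk2b and Prkab1, were not on the list. The comparison therefore holds only for the listed genes.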

How the data were processed

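RNA from 6 prostates was sequenced as stranded, poly(A)-selected pairs. Per the submitters' processing notes, the authors used HISAT, Cufflinks and Cuffnorm with mm10 (GRCm38), and deposited FPKM per gene and mouse, corrected for transcript length and mapped fragments. Tool versions are not given in the sources used here. Symbols with several identifiers (124) were represented by the one with the highest mean.

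Genotypes came from the labels. log2(FPKM + 0.1) of the 13818 genes with a mean of at least 1 FPKM was fitted with limma 3.58.1 (R 4.3.3, intensity trend, 3 genotypes, no block), with contrasts between genotypes and, separately, a slope on the number of mutant alleles. Benjamini-Hochberg adjustment ran over all tested genes with a threshold of 0.05. Fold changes on this scale understate those of low genes. With 2 mice per genotype, p-values rest on pooled spread. The fit was tested on simulated data. Ratios were tested by exact permutation (scipy 1.17.1, numpy 2.4.6, pandas 2.3.3, Python 3.11.15, plots with matplotlib 3.10.9).

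All 10 genes were named. From other lists at most 4 genes were named, those with the smallest p among genes at an unadjusted p under 0.05. The genes closest to Tap1 were 5, without predicted or RIKEN names. Brd2, Eda2r, Mdm2, Fas, the class II and the marker genes given with values were chosen after their values were seen. The genes and lists were chosen with earlier results of these data known. Alternatives were pseudocounts of 1 and 0.01, no filter, a mean of at least 5 FPKM, median scaling, quantile normalization, no trend and leaving out each mouse. The list and no-overlap counts without mouse 47 were chosen after seeing the data. Gene positions are GENCODE M21 (GRCm38). Some marker genes are not reported here.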

Additional observations from a re-analysis of the deposited data

How the results depend on the processing

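The homozygous difference of Tap1 was between -1.03 and -0.65 over 14 settings (adjusted p = 0.111 to 0.364) and that of Nlrc5 between 0.78 and 1.23 over 13 (adjusted p = 0.128 to 0.397), and neither changed its side of the threshold. The count of genes higher in homozygous mice at an unadjusted p under 0.05, 1 as reported, was 0 with a mean of at least 5 FPKM, where Nlrc5 was not tested, and 1 to 2 when each mouse was left out in turn (2 without homozygous mouse 49, where B2m had an unadjusted p of 0.03). Under quantile normalization 1 gene in place of 2 had both homozygous values below wildtype. The sign turned under quantile normalization for Tap2 (0.0048) and Psmb10 (0.036) in homozygous and B2m (-0.181) in heterozygous mice. When each mouse was left out, the sign turned for Psmb10 in homozygous mice (-0.18 to 0.13) and for Psmb8 (-0.14 to 0.17) and Psmb10 (-0.087 to 0.227) in heterozygous mice, all far from the threshold. The cause was not tested. Without wildtype mouse 39 or heterozygous mouse 40 the heterozygous count for Tap1 was 0 in place of 1. Without mouse 39 the heterozygous count of genes higher was 1 in place of 0 (Nlrc5, unadjusted p = 0.0407), and under quantile normalization 2 genes in place of 4 had both heterozygous values above wildtype. With 5 mice the ratio tests have few arrangements, and without mouse 47, 7 of the 9 ratios had p = 0.0333 (exact permutation). Median scaling moved the median of all genes by under 0.1 on the log2 scale. No paired analysis was possible because the animal numbers are not shared between genotypes. With 2 mice per genotype, differences under about the width of the intervals given are not resolved, and the depth behind single FPKM values is unknown.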
